A study of Mus musculus with 8 samples.

Results

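Immediate early and activity-induced genes were followed in beta cells sorted from Control mice and from mice with a deletion of Chd4. The set holds 41 genes, taken by their symbols from a list of such genes, of 55487 gene identifiers measured. It covers AP-1 subunits, Egr factors and Srf, Nr4a receptors, Klf factors, other early-response genes, Dusp phosphatases, calcium and cAMP response genes, heat shock genes and Gadd45 genes. Islets of tamoxifen-treated mice were dispersed into single cells, beta cells were sorted by flow cytometry, and their RNA was sequenced. Control mice gave 4 libraries, and mice with a beta-cell deletion of Chd4 (Chd4KO) gave 4. The driver of the deletion, the alleles the Control mice carried, strain, sex and age are not given in the sources used here. Each library bears an animal number of its own, so the replicates were taken as separate mice. The numbers are lower in Control than in Chd4KO, and whatever they mark cannot be told apart from genotype.

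Immediate early genes are transcribed within minutes of a stimulus because the factors that switch them on, such as CREB and SRF, are already present in the cell and need only be activated by kinases. In beta cells, glucose and depolarisation raise calcium and cAMP and induce Fos, Egr1, Nr4a1 and Npas4, and many of the proteins made are transcription factors or feedback inhibitors with short lives. Enzymatic dispersion and sorting of a tissue are also known to induce these genes and inducible heat shock genes. Chd4 is the ATPase of the nucleosome remodelling and deacetylase complex (NuRD), which in cerebellar granule neurons has been linked to switching off activity-induced genes after a stimulus.

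The sequences through which such signals are known to act lie just upstream of the genes. The stretches below, from RefSeq on build GRCm38.p6, run from 180 bases before the annotated start to the base before it and are shown because these genes carry the contrasts described later. Capitals mark the CRE TGACGTCA in Btg2, the CRE half-site TGACG in Fos and Nr4a2 (CGTCA where it lies on the other strand), the CArG box bound by SRF in Srf and Zfp36, and the heat shock element GAANNTTC in Hspa1a.
Fos: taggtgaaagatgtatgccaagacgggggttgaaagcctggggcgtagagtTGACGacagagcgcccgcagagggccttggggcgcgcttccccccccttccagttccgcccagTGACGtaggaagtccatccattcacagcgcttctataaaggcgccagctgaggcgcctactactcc
Btg2: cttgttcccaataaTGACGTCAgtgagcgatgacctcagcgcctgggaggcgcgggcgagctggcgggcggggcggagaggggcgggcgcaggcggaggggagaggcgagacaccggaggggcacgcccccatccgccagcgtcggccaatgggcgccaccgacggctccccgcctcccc
Nr4a2: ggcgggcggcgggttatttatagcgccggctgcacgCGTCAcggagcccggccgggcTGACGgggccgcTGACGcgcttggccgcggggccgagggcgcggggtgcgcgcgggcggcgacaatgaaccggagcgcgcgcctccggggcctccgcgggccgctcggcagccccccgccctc
Srf: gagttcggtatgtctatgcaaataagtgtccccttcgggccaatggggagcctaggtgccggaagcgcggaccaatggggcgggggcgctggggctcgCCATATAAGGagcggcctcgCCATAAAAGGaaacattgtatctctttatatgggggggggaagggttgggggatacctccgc
Zfp36: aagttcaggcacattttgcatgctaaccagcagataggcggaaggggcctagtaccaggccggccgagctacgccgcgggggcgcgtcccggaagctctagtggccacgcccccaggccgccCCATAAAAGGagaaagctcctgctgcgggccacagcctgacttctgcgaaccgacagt
Hspa1a: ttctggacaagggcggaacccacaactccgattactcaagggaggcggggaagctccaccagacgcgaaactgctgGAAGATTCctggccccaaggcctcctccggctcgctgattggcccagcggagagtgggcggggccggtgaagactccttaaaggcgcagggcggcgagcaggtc
The stretch of Fos is chr12:85473710-85473889 on the plus strand. The other stretches lie on the minus strand, at chr1:134079156-134079335 for Btg2, chr2:57124004-57124183 for Nr4a2, chr17:46556163-46556342 for Srf, chr7:28379229-28379408 for Zfp36 and chr17:34972157-34972336 for Hspa1a. Counted back from the start, the half-sites of Fos begin at -129 and -66, those of Nr4a2 at -144, -123 and -111, and the CRE of Btg2 spans -166 to -159. The CArG boxes span -82 to -73 and -62 to -53 in Srf and -58 to -49 in Zfp36, and the heat shock element of Hspa1a spans -104 to -97. The Hspa1b stretch was identical to that of Hspa1a at 179 of 180 positions.

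Motifs were counted on both strands in 300-base windows, from 250 bases before to 50 after each start, which the RefSeq table held for 33 of the 41 genes in 41 windows. The CRE half-site was in 25 of the 41 windows, of 21 genes, against 20.8% of all 32851 windows. It was searched after the data had been seen, and it is contained in the full CRE, which was in 3 windows (Btg2, Dusp1 and Maff) against 1.79% of all. The CArG box was in 7 windows, of Dusp5, Egr2, Srf and Zfp36, against 1.63%. The heat shock element was in 4, of Fosl2, Hspa1a, Hspa1b and Jun, against 7.86%, and the Egr site GCGTGGGCG was in 1, of Maff, against 0.612%. The AP-1 site TGACTCA was in none of the 41 windows against 5.2% of all. Genes without a window, Egr1 among them, and sites beyond the windows were not searched. These matches are letters in a window, and binding was not measured.

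Values are TPM, transcript levels scaled for gene length and to the same total in each library. Reads recovered from TPM numbered 16.4 to 41.01 M in the Control libraries, while the Chd4KO libraries held 14.9 to 20.2 M. Chd4, the deleted gene, had 11.1 to 15.98 TPM in Control libraries against 2.59 to 8.38 in Chd4KO libraries (exact permutation p = 0.0286, two-sided, the smallest that 4 against 4 libraries allow). All 10 beta-cell markers were detected, with a summed level of 396394 to 652730 TPM, most of it insulin. Of these markers, Mafa (166 ± 11.99 against 46.96 ± 23.3 TPM) and Slc2a2 (170.3 ± 26.9 against 67.8 ± 24.8 TPM) were called lower in Chd4KO (SD, n = 4; limma adjusted p = 0.0229 and 0.031). The libraries did not all look alike. The 15 acinar markers summed to 38177 TPM in Chd4KO replicate 2 and to 1495 in Control replicate 2, against 3.73 to 212 in the other 6. Insulin took 62.0% of TPM in Chd4KO replicate 4 and 32.4 to 47.0% in the others. The 6 alpha-cell markers summed to 1481 to 2848 TPM in Control and 790 to 4144 in Chd4KO. Sums were 2440 to 4989 and 2881 to 5520 for 6 delta, PP and epsilon markers, and 373 to 506 and 224 to 579 for 7 ductal markers. Of these, only Rbp4 (171 against 575 TPM) was called higher and only Cftr (4.04 against 0.251 TPM) lower in Chd4KO (means, limma adjusted p = 0.033 and 0.0238). The 8 endothelial markers summed to 5.59 to 6.09 TPM in Control and 6.41 to 9.57 in Chd4KO. Among them Cdh5, which defines endothelial cells, was at 0 in 7 of 8 libraries. Only 2 were tested, Egfl7 (1.30 against 2.88 TPM) and Esam (4.10 against 3.32 TPM). They went opposite ways and were not called (means, limma adjusted p = 0.0733 and 0.477). The 8 mesenchymal markers summed to 0.148 to 0.610 TPM in Control and 0.816 to 1.52 in Chd4KO. The 12 leukocyte markers summed to 134 to 169 TPM in Control and 120 to 236 in Chd4KO, with Ptprc at no more than 0.831, and of them Cd68 (1.55 ± 0.43 against 4.91 ± 0.79 TPM) and Fcer1g (15.8 ± 5.36 against 48.1 ± 16.97 TPM) were called higher in Chd4KO (SD, n = 4; limma adjusted p = 0.0132 and 0.0482). Of the 9 leukocyte markers tested, 5 had a negative change, and the median change was -0.04. Over all genes tested, 1.53% were called higher in Chd4KO, 74.8% of changes were negative and the median change was -0.25. C1qa was the largest part of the leukocyte marker sum in every library. It ran from 92.2 to 121 TPM over the Control libraries and from 55.1 to 133 TPM over the Chd4KO libraries. In such bulk samples fewer cells of a type and less RNA per cell cannot be told apart. The libraries do not mark strand, and 12 members overlap another annotated gene, 11 of them one that reached 1 TPM.

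None of the members passed the test between the genotypes, and the genes differed far more among mice of 1 genotype than most genes did. Fos, Jun, Egr1, Atf3, Nr4a1, Btg2 and many others were high in Control replicates 2, 3 and 4 and in Chd4KO replicate 2, and low in Control replicate 1 and in Chd4KO replicates 1, 3 and 4. The orphan receptor Nr4a2 was lower in all 4 Chd4KO libraries than in any Control library. The HSP70 genes Hspa1a and Hspa1b had both their highest and their lowest values in Chd4KO libraries. Summed over the 41 genes, the level was 3075, 10957, 10589 and 8057 TPM in Control replicates 1 to 4 and 2217, 9626, 4319 and 3852 TPM in Chd4KO replicates 1 to 4. That was 0.307 to 1.10% of all TPM in Control and 0.222 to 0.963% in Chd4KO, and the ranges overlap.

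**Figure D1:**
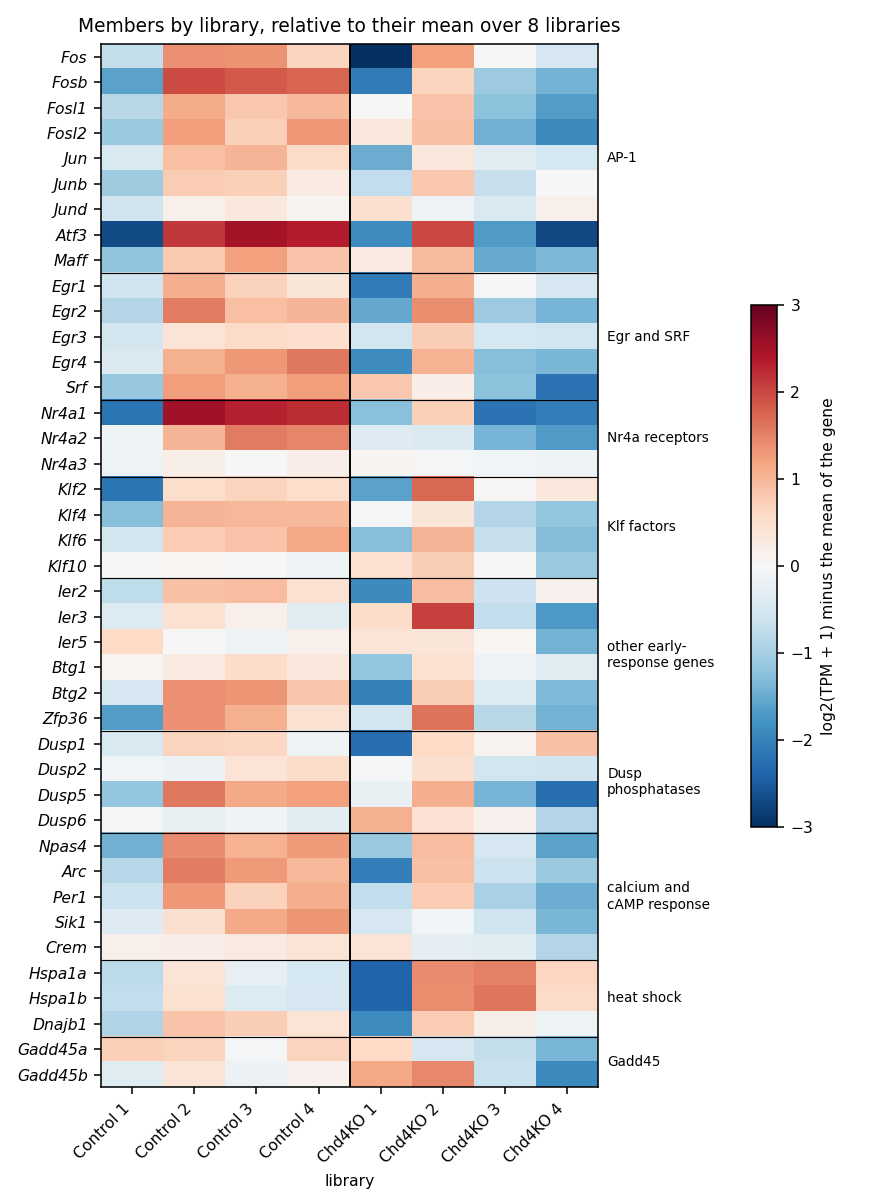
Level of each of the 41 genes (rows, grouped by role) in the 8 libraries (columns, Control then Chd4KO), in log2(TPM + 1) minus the mean of the gene. Most rows are high in Control replicates 2, 3 and 4 and Chd4KO replicate 2. Hspa1a and Hspa1b are high in Chd4KO replicates 2, 3 and 4, and Nr4a2 is high in Control replicates 2, 3 and 4 only.

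Between the genotypes, 39 of the 41 genes reached 1 TPM in at least 4 libraries and were tested with limma on log2(TPM + 1). Of these, 0 had an adjusted p under 0.05, where 2.97% of the 15189 genes tested did (1.53% higher and 1.44% lower in Chd4KO). With an unadjusted p under 0.05 there were 7 (17.9%), Fosb, Jun, Egr4, Nr4a2, Btg2, Sik1 and Gadd45a, against 16.2% of all genes. That count rested on single libraries: it was 18 of 40 (45%) without Control replicate 1, where 12.6% of all genes had such a p, and 17 of 39 (43.6%) without Chd4KO replicate 2, against 20.2%. Without Control replicate 2, Control replicate 4 or Control replicate 3 it was 2, 2 and 3, without Chd4KO replicate 3 it was 3 and without Chd4KO replicate 4 it was 4, or 5.0 to 10.0% of members against 11.7 to 20.1% of all genes. With array weights it was 25 (64.1%) against 25.8%, and with the replicate number as a block 15 (38.5%) against 16.5%. The groups did not overlap in 1 gene (2.56%), Nr4a2, against 14.8% of all genes with 11.3% having Chd4KO below and 3.54% above Control. The estimated change was negative in 31 of 39 (79.5%), against 74.8% of all, with a median of -0.85 against -0.25 over all genes tested. The median over all genes is below 0, and scaling by the median of ratios moved it to -0.023 and the members' median to -0.64, so a change of -0.25 is that of the median gene. Nr4a3 and Dusp2 were below the filter, at no more than 0.272 and 1.31 TPM.

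**Figure D2:**
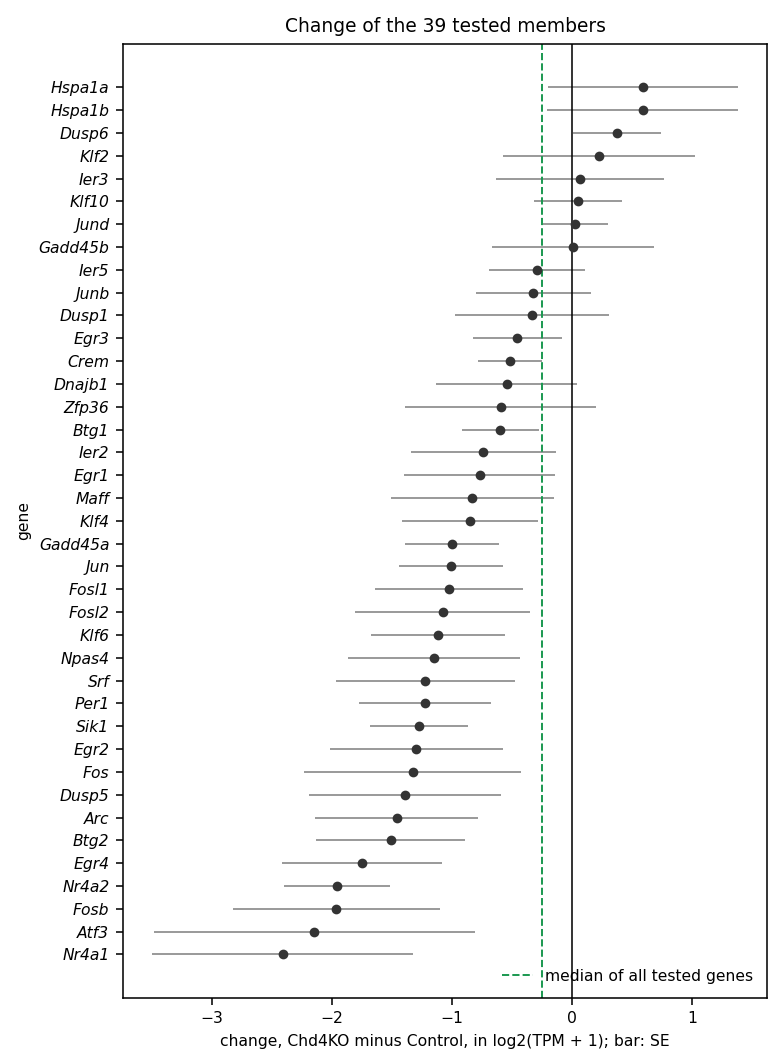
Change of the 39 tested genes, Chd4KO minus Control in log2(TPM + 1), with limma's SE as bars and 4 libraries a group. The points run from -2.41 for Nr4a1 to 0.59 for Hspa1a, the dashed line marks the median of all genes tested at -0.25, and the widest bars belong to Atf3 and Nr4a1.

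AP-1 is a dimer of Fos-family and Jun-family proteins, to which Atf3 and Maff are related, and its 9 genes here made up more of the summed level than any other role in all 8 libraries. Fos (ENSMUSG00000021250, chr12:85473890-85477273, plus strand), whose protein pairs with Jun, was at 640.2, 2715, 2685 and 1687 TPM in Control replicates 1 to 4 and at 99.9, 2490.5, 1055 and 743 TPM in Chd4KO replicates 1 to 4. Chd4KO replicate 2 lies among the 3 high Control libraries and Control replicate 1 lies below Chd4KO replicates 2, 3 and 4, so the groups overlap. Among all genes Fos ranked between 14 and 77 in Control and between 18 and 934 in Chd4KO. The group means were 1932 ± 985 and 1097 ± 1010.5 TPM (SD, n = 4 in each group), and the change was -1.33 ± 0.90 on the log2(TPM + 1) scale (SE, limma adjusted p = 0.469). It was -0.42 without Chd4KO replicate 1 and -1.96 without Chd4KO replicate 2.

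Jun, the classical partner of Fos, was at 428, 1089, 1184 and 871 TPM in Control and at 208, 729, 475 and 406 TPM in Chd4KO. Control replicate 1 lies among the Chd4KO libraries and the other 3 Control libraries lie above them all. The change of -1.01 ± 0.43 did not pass (SE, limma adjusted p = 0.295). Jun overlaps the antisense gene Junos, which reached 242 TPM, and reads of the pair cannot be told apart. Atf3, a stress-induced repressor of the same protein class, was chosen after its values were seen because it varied so widely. It was at 20.4, 591, 765 and 703 TPM in Control and at 36.1, 539.8, 41.2 and 19.9 TPM in Chd4KO. Control replicate 1 lies among the 3 low Chd4KO libraries and Chd4KO replicate 2 close to the 3 high Control libraries. The highest of the 8 values was 38.4 times the lowest. Jund, a subunit that many cells make constantly, was at 217 to 404 TPM in Control and 235 to 457 TPM in Chd4KO, with a change of 0.03 ± 0.27 (SE, limma adjusted p = 0.963) whose sign depended on single libraries. An antisense gene, Gm11175, overlaps Jund and reached 859 TPM.

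The make-up of AP-1 transcripts differed between libraries. Fos made up 38.5 to 46.6% of the summed AP-1 TPM in Control and 35.4 to 48.8% in Chd4KO replicates 2, 3 and 4, but 8.63% in Chd4KO replicate 1, where Jund made up 39.5%. In the other 7 libraries Jund made up 5.86 to 17.3%. The Atf3 share was 10.1 to 16.1% in Control replicates 2, 3 and 4 and Chd4KO replicate 2, and 0.949 to 3.12% in the other 4 libraries. Junb made up 28.6% in Chd4KO replicate 1 and 26.5% in Chd4KO replicate 4, against 15.0 to 19.1% in the other 6. Fosb, a Fos relative, ran from 6.20 to 84.4 TPM in Control and from 4.13 to 33.7 TPM in Chd4KO, and Junb from 264 to 950.2 TPM and from 332 to 974 TPM. Fosl1, Fosl2 and Maff stayed at or below 26.3 TPM. These 5 genes had changes from -1.97 (Fosb) to -0.33 (Junb), and in each of them the 4 highest libraries were Control replicates 2, 3 and 4 and Chd4KO replicate 2. The median change of the 9 was -1.03, with 8 negative and 2 under an unadjusted p of 0.05, where 74.8% and 16.2% of all genes were.

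Egr factors are zinc-finger proteins that carry an early signal to later genes, and Srf is the factor that binds CArG boxes in many immediate early promoters. Egr1 was at 208, 672, 513 and 406 TPM in Control and at 73.6, 675, 305 and 223 TPM in Chd4KO. Its highest library was a Chd4KO library and its lowest too, so the groups overlap across the Control range. The means of 449.7 ± 195 and 319 ± 256 TPM (SD, n = 4 in each group) gave a change of -0.77 ± 0.63 (SE, limma adjusted p = 0.532), which was -0.20 without Chd4KO replicate 1 and -1.26 without Chd4KO replicate 2. Srf, a target of its own protein, was at 11.7, 65.1, 57.2 and 65.4 TPM in Control and at 47.3, 30.8, 10.7 and 4.99 TPM in Chd4KO. It did not follow Fos in the Chd4KO libraries: replicate 1, lowest for Fos, was highest for Srf. Its change was -1.23 ± 0.74 (SE, limma adjusted p = 0.431). Egr2, Egr3 and Egr4 were lower in level, at up to 15.3, 1.54 and 13.8 TPM. Egr4 was at 2.63 to 13.8 TPM in Control and at 0.321 to 9.16 TPM in Chd4KO, of which replicates 1, 3 and 4 were below every Control library. Each of the 3 had its 4 highest values in Control replicates 2, 3 and 4 and Chd4KO replicate 2, and changes of -1.30, -0.46 and -1.75. Egr3 reached 1 TPM only in those 4 libraries, which took it past the filter, and it rested on 1 to 84 reads a library.

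Nr4a receptors are orphan nuclear receptors, made at once after a stimulus and active without a known ligand. Nr4a2 (ENSMUSG00000026826, chr2:57106830-57124003, minus strand) was at 5.67, 13.9, 20.8 and 19.3 TPM in Control and at 4.62, 4.39, 1.77 and 1.27 TPM in Chd4KO, from 52 to 1253 reads a library. Every Chd4KO library was below every Control library, but Control replicate 1 stood close to the upper Chd4KO libraries. The group means were 14.9 ± 6.84 and 3.02 ± 1.74 TPM (SD, 4 libraries a group). Groups without overlap fix the exact permutation p at 0.0286 (two-sided, the smallest possible), so it adds nothing to the lack of overlap. Of all genes tested, 14.8% had groups that did not overlap. The change of -1.96 ± 0.44 (SE) was -1.71 relative to the median gene, and its limma adjusted p of 0.0527 missed the threshold. That p ran from 0.00559 to 0.178 over 20 alternative fits, 6 of which called the gene lower. Unlike for most members, Chd4KO replicate 2 was low for Nr4a2 beside its high level of Fos.

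Nr4a1 was at 20.3, 556, 479 and 449 TPM in Control and at 39.6, 159.7, 20.02 and 22.2 TPM in Chd4KO. Control replicate 1 stood among the lowest Chd4KO libraries, and the other 3 Control libraries were all above Chd4KO. The means of 376 ± 241 and 60.4 ± 66.8 TPM (SD, n = 4 in each group) gave a change of -2.41 ± 1.08 (SE, limma adjusted p = 0.313). Without Control replicate 1 the limma adjusted p of Nr4a1 was 0.0463, and over all alternatives it ran from that value to 0.552. Nr4a3 was at or below 0.272 TPM throughout and was not tested.

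**Figure D3:**
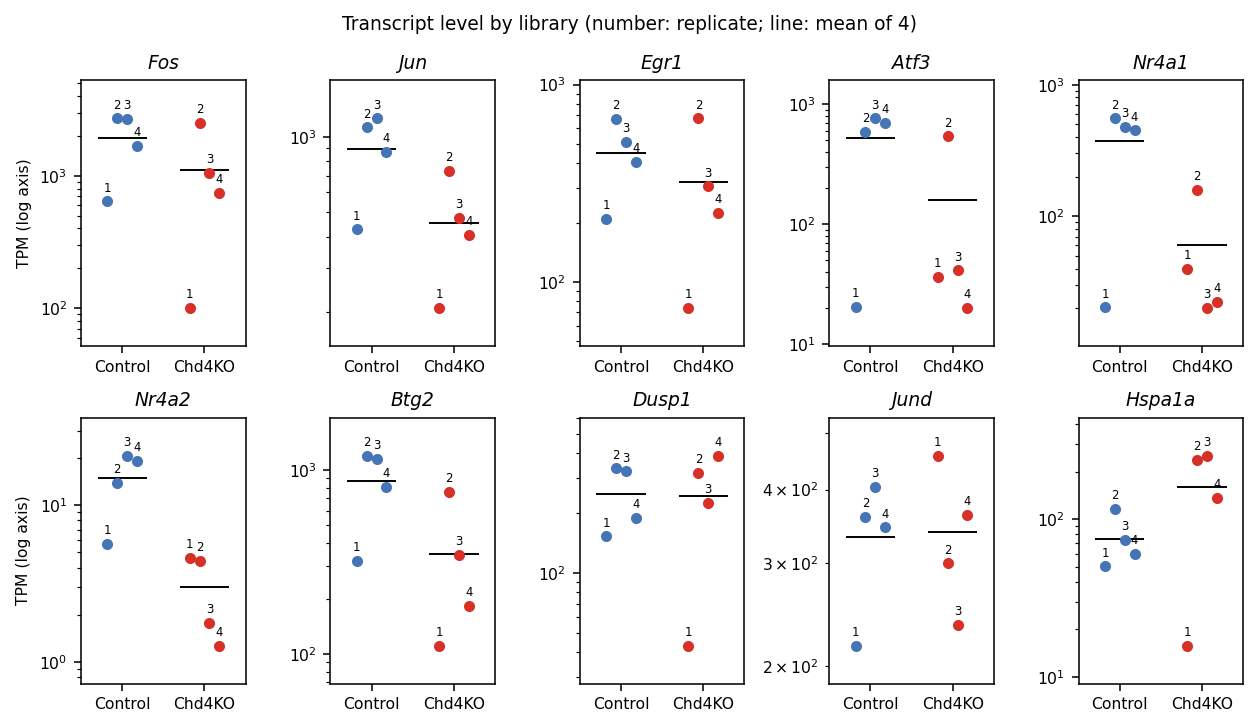
Level of 10 genes in TPM (log axis) in each Control (blue) and Chd4KO (red) library, with the replicate number beside each point and the mean of 4 as a line. Control replicate 1 is low and Chd4KO replicate 2 high for Fos, Jun, Egr1, Atf3, Nr4a1 and Btg2, the groups are apart only for Nr4a2, and Hspa1a is high in Chd4KO replicates 2, 3 and 4.

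Klf factors are zinc-finger proteins that bind GC-rich and CACCC sequences. Klf10, known as a TGF-beta-inducible gene, was at 52.5, 54.3, 52.9 and 47.1 TPM in Control and at 72.7, 87.7, 53.0 and 23.5 TPM in Chd4KO. The Control libraries lay close together, and the Chd4KO libraries spread on both sides of them. The change was 0.04 ± 0.37 (SE, limma adjusted p = 0.953). Klf6 was at 25.8, 66.3, 70.9 and 87.1 TPM in Control and at 15.3, 78.7, 23.5 and 15.1 TPM in Chd4KO, with a change of -1.12 ± 0.56 (SE, limma adjusted p = 0.359). Control replicate 1 stood beside the 3 low Chd4KO libraries, and Chd4KO replicate 2 fell among the 3 high Control libraries. Klf2 and Klf4, both better known from endothelium and stem cells, had changes of 0.22 and -0.85. Klf2 reached its highest value of 56.7 TPM in Chd4KO replicate 2, the library whose acinar marker sum was also highest, and its change was -0.32 without that library.

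Among the other early-response genes, Btg2, which restrains cell division, was at 321, 1194, 1146 and 811 TPM in Control and at 111, 758, 346 and 183 TPM in Chd4KO. Control replicate 1 again fell among the Chd4KO libraries and the other 3 stood above all of them. The change was -1.51 ± 0.62 (SE, limma adjusted p = 0.276). Ier2, a small nuclear protein gene, was at 160.2, 502, 523.6 and 376 TPM in Control and at 72.2, 523, 177 and 300.4 TPM in Chd4KO. Its groups overlap over most of the Control range, and its change was -0.74 ± 0.61 (SE, limma adjusted p = 0.533). Ier3, Ier5, Btg1 and Zfp36, whose product speeds the decay of AU-rich mRNAs, had changes from -0.60 to 0.06. Btg1 lay close together in Control, from 55.9 to 79.3 TPM, and ran from 23.4 to 74.5 TPM in Chd4KO. Zfp36 ran from 27.5 to 234 TPM in Control and from 33.1 to 282 TPM in Chd4KO, with Control replicate 1 the lowest of the 8. Ier3 reached 75.6 TPM in Chd4KO replicate 2 and 26.4 TPM in Chd4KO replicate 1, above every Control library, and was 4.63 TPM in replicate 4. Zfp36 shares its place with an antisense gene, Gm44710, that reached 56.8 TPM.

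Dusp phosphatases remove the activating phosphates from MAP kinases and so close the loop that induces them. Dusp1 was at 153, 337, 325 and 189 TPM in Control and at 43.3, 321, 227 and 390.0 TPM in Chd4KO. The highest and the lowest library were both Chd4KO, and the change was -0.34 ± 0.64 (SE, limma adjusted p = 0.78), or 0.36 without Chd4KO replicate 1. Dusp5 was at 48.5, 332, 245 and 262 TPM in Control and at 93.8, 237, 41.6 and 22.2 TPM in Chd4KO. It followed the common order of libraries, with Control replicate 1 low and Chd4KO replicate 2 high, and changed by -1.39 ± 0.80 (SE, limma adjusted p = 0.409). An antisense gene at Dusp5 reached 140 TPM. Dusp6, which acts on ERK in the cytoplasm, had a change of 0.37 and was highest in Chd4KO replicate 1 at 25.6 TPM, where Fos was lowest.

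Calcium and cAMP response genes include factors known from neurons that beta cells share. Arc, best known for its role at synapses, was at 39.5, 210.1, 175 and 144 TPM in Control and at 16.7, 134, 45.6 and 33.1 TPM in Chd4KO. Npas4, a calcium-induced transcription factor, was at 11.4, 88.0, 67.4 and 80.5 TPM in Control and at 14.5, 61.9, 22.4 and 10.0 TPM in Chd4KO. In both, 3 Control libraries were above every Chd4KO library and Control replicate 1 lay among the low ones. The changes were -1.46 ± 0.68 for Arc and -1.15 ± 0.72 for Npas4 (SE, limma adjusted p = 0.328 and 0.441). Per1, a clock gene with a cAMP-driven promoter, Sik1, a kinase that restrains CREB signalling, and Crem, a CREB relative, had changes of -1.23, -1.28 and -0.52. Sik1 was at 1.27 to 6.32 TPM in Control and at 0.132 to 1.79 TPM in Chd4KO, where only replicate 2 exceeded the lowest Control library. Per1 was at 2.51 to 12.6 TPM in Control and at 0.944 to 8.19 TPM in Chd4KO. Crem was at 19.1 to 23.3 TPM in Control and at 8.88 to 23.3 TPM in Chd4KO, and its order of libraries was not that of Fos. Chd4KO replicates 2, 3 and 4 were below every Control library for Crem.

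Among the heat shock genes, which code for chaperones, the inducible HSP70 genes had another order of libraries than Fos across both groups. Within Control their order was that of Fos, and within Chd4KO only replicates 2 and 3 changed places. Hspa1a, an inducible HSP70, was at 50.1, 115, 74.1 and 60.2 TPM in Control and at 15.8, 237, 252 and 137 TPM in Chd4KO. Chd4KO replicates 2, 3 and 4 were above every Control library and Chd4KO replicate 1 was below all of them. The group means were 74.97 ± 28.7 and 160.5 ± 109 TPM (SD, n = 4 in each group), with a change of 0.59 ± 0.79 (SE, limma adjusted p = 0.693) whose size turned on single libraries. It was 1.49 without Chd4KO replicate 1 (limma adjusted p = 0.066), 0.21 without Chd4KO replicate 2, 0.18 without Chd4KO replicate 3 and -0.15 without Chd4KO replicates 2 and 4 together. Hspa1b is a near-identical copy, reads may be split between the copies, and Gm20481 overlaps Hspa1a with up to 606 TPM, so the level of either copy is uncertain. Their sum was 98.9, 229, 136 and 118 TPM in Control and 30.5, 453, 502 and 259.7 TPM in Chd4KO. Dnajb1, an HSP40 that works with HSP70, was at 66.5, 225, 207 and 166 TPM in Control and at 32.9, 213, 141 and 112 TPM in Chd4KO. It followed the order of Fos closely instead, with a change of -0.55 ± 0.59 (SE, limma adjusted p = 0.624).

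Gadd45 proteins answer DNA damage and stress. Gadd45a was at 48.9, 46.8, 28.2 and 47.0 TPM in Control and at 44.7, 20.1, 17.4 and 10.7 TPM in Chd4KO. Only Chd4KO replicate 1 reached the Control range, and the change was -1.003 ± 0.39 (SE, limma adjusted p = 0.253). Gadd45b was at 49.4, 84.5, 56.8 and 69.8 TPM in Control and at 143, 175, 39.9 and 16.2 TPM in Chd4KO. Chd4KO replicates 1 and 2 were above every Control library and replicates 3 and 4 below, and the change was 0.01 ± 0.67 (SE, limma adjusted p = 0.996), of a sign that changed with the setting.

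Most of the genes varied widely among mice of 1 genotype. The median SD on the log2(TPM + 1) scale was 0.80 among the 4 Control libraries, against 0.18 over all genes tested, and 1.19 among the 4 Chd4KO libraries, against 0.51. In Control, 30 of 39 members (76.9%) exceeded the 90th percentile of all genes, an SD of 0.45, and in Chd4KO 25 exceeded that percentile, an SD of 1.02. Atf3 and Nr4a1 had the widest spread of the members in Control, with SDs of 2.50 and 2.27, while Klf10, Crem and Dusp6 had SDs of 0.09, 0.12 and 0.13 there.

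**Figure D4:**
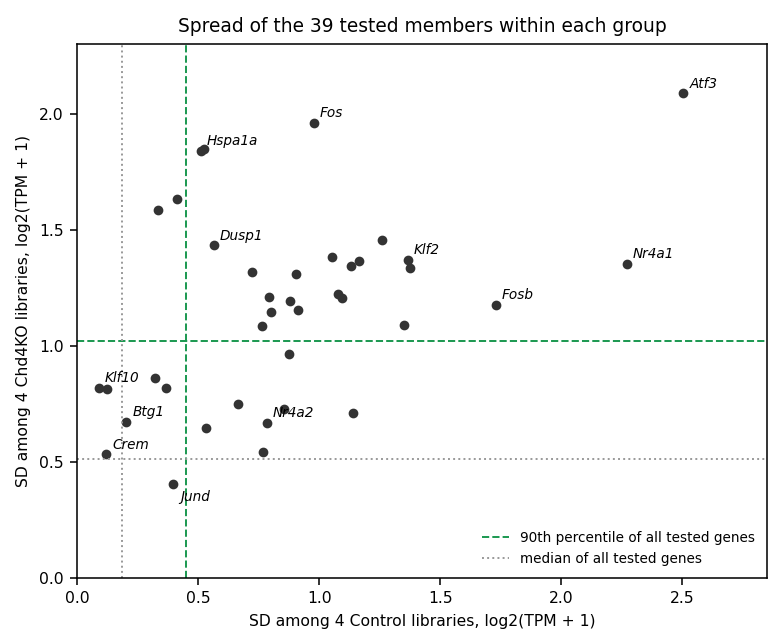
SD among the 4 Chd4KO libraries against SD among the 4 Control libraries for the 39 tested genes, in log2(TPM + 1), with the median (dotted) and 90th percentile (dashed) of all genes tested. Most points lie right of the dashed line at 0.45, and Klf10, Crem and Btg1 lie left of it.

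The order of the libraries was shared. After the values had been seen, the members whose 4 highest libraries were Control replicates 2, 3 and 4 and Chd4KO replicate 2 were counted: there were 26 of 39 (66.7%), against 2.9% of all genes tested. They comprise 8 of the 9 AP-1 genes, all 4 Egr genes, Nr4a1, Klf2, Klf4, Klf6, Ier2, Btg1, Btg2, Zfp36, Dusp5, Npas4, Arc, Per1, Sik1 and Dnajb1. Egr3 passed the filter only through these 4 libraries, at 1.03, 1.26, 1.15 and 1.54 TPM, so the filter fixed its place in the count. The 4 libraries of that pattern held 41.01, 25.8, 34.6 and 15.3 M reads, and the other 4 held 16.4, 16.9, 14.9 and 20.2 M. Their acinar marker sums were 1495, 19.2, 173 and 38177 TPM, against 9.24, 212, 11.2 and 3.73 TPM in the other 4. The part of depth and of acinar RNA in the pattern was not tested.

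Correlation with Fos was taken over the 8 libraries on the log2(TPM + 1) scale, for 33 members and, for background, over 15188 genes. Atf3, Maff, Egr2, Egr3 and Klf6 fell into separate sets of high and low libraries, with a gap of 52.7 to 70.8% of their range, and were given no coefficient. No such exclusion was made among the background genes, so the member and background figures rest on unlike rules. Pearson's r was positive in 26 and negative in 7 of the 33, with a median of 0.65 against 0.01 over all genes. It exceeded 0.7 in 13 members, against 1.97% of all genes. An unadjusted exact permutation p under 0.05 with a positive r was found for 14 members, against 1.91% of all genes, and for Spearman's rho in 15, against 2.62% of all genes. After Benjamini-Hochberg adjustment over all 15188 genes 0 members passed (smallest adjusted p = 0.685 for r and 0.861 for rho, exact permutation test), as did 0.0% of all genes.

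By Pearson's r, Egr1 was most like Fos, with r = 0.99 (exact permutation p = 0.000149) and rho = 0.93 (p = 0.00223), followed by Dnajb1 with r = 0.98 (exact permutation p = 7.44e-05) and rho = 0.98 (p = 0.000397). By rho, Dnajb1 and Fosb (0.98 each) and Btg2 and Arc (0.95 each) stood above Egr1. Btg1, Jun and Ier2 had an r of 0.95 each, and Btg2 and Arc of 0.92 each. Jund (-0.19), Dusp6 (-0.51), Klf10 (-0.02), Crem (-0.09), Gadd45a (-0.13), Gadd45b (-0.04) and Ier5 (-0.11) had negative values. All 7 were positive in the 6 libraries left without Chd4KO replicate 1 and Control replicate 1, from 0.34 for Jund to 0.84 for Gadd45b. Leaving out Chd4KO replicate 1 and Control replicate 1, the 2 libraries farthest from the median of Fos, r was 0.97 for Egr1, 0.99 for Dnajb1, 0.92 for Jun, 0.97 for Btg2 and 0.96 for Arc. For Dusp1 it went from 0.87 to 0.05 and for Hspa1a from 0.69 to -0.27, so these relations rest on those libraries. Without them r exceeded 0.7 in 27 members but also in 52.0% of all genes. Taken on deviations from the group means, r was 0.99 for Egr1 and Dnajb1, 0.96 for Jun and 0.92 for Hspa1a.

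**Figure D5:**
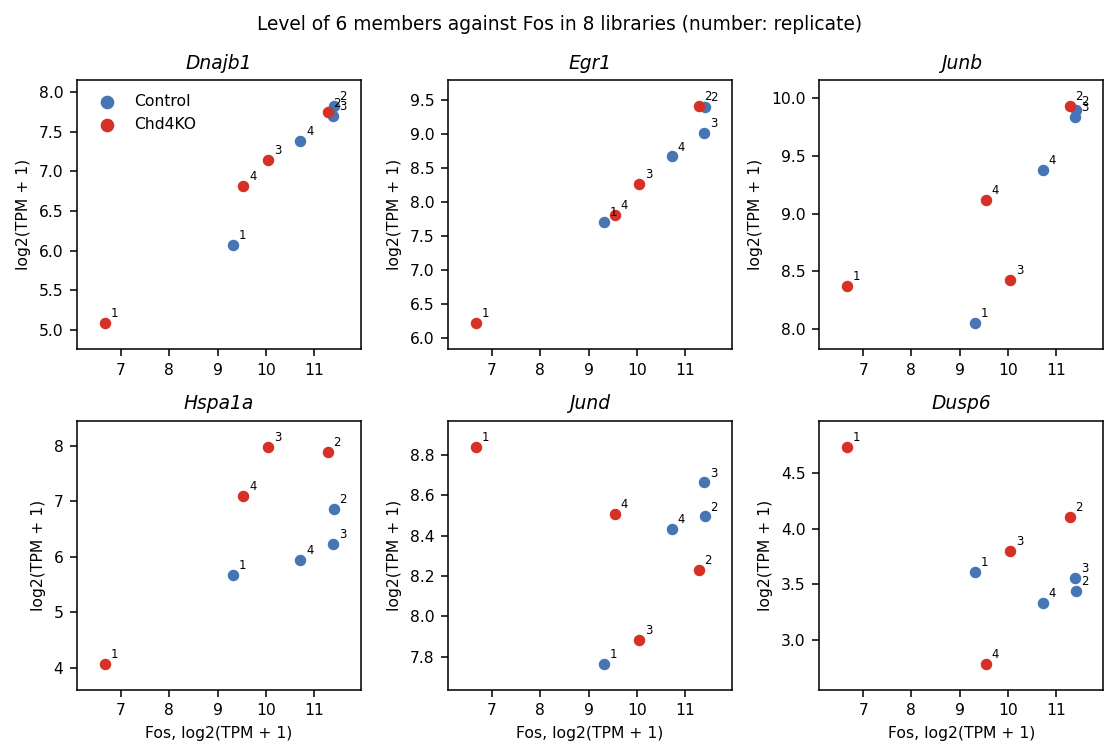
Level of 6 genes against Fos in the 8 libraries, both in log2(TPM + 1), with Control in blue, Chd4KO in red and the replicate number beside each point. Dnajb1 (r = 0.98) and Egr1 (r = 0.99) rise along a line with Fos, Junb less tightly, while Jund (r = -0.19) and Dusp6 (r = -0.51) do not, and the Hspa1a points of Chd4KO replicates 2, 3 and 4 lie above those of Control.

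The rest of the pathway was read from lists of other genes. Over all genes tested, 2.97% were called, 74.8% of changes were negative and the median change was -0.25. The 4 highest libraries were those shared by most members in 2.9% of all genes. Of 31 kinases and factors upstream of these genes, 30 were tested and 0 were called, 26 changes were negative, the median was -0.31, and 1 had the same 4 highest libraries. Prkar1a, a regulatory subunit of protein kinase A, averaged 489 ± 38.6 TPM over the Control libraries against 305 ± 94.3 TPM over the Chd4KO libraries (SD, n = 4; limma adjusted p = 0.187). Mapk3, the kinase ERK1, averaged 134 ± 11.5 against 185 ± 30.2 TPM (SD, n = 4; limma adjusted p = 0.283). Of 30 other rapid-response genes 24 were tested, 0 were called and 20 were negative, with a median of -0.75. In 12 of them, among them Ccn1, Gem, Rasd1, Nfil3, Bhlhe40, Sgk1 and Irs2, the 4 highest libraries were again Control replicates 2, 3 and 4 and Chd4KO replicate 2. The 2 with the highest mean TPM were Pcsk1 and Rasd1. Pcsk1 averaged 542 ± 31.6 against 395 ± 252 TPM (SD, n = 4, limma adjusted p = 0.453). Rasd1, a Ras-like protein gene, averaged 622 ± 349 against 248 ± 141 TPM (SD, n = 4, limma adjusted p = 0.379). Of 15 other heat shock genes all were tested, 0 were called and 13 were negative, with a median of -0.33, and 3 (Hsph1, Dnaja1 and Dnajb4) shared the 4 highest libraries. Hsp90ab1 and Hspa8 had the highest mean TPM of these. Hsp90ab1 averaged 693 ± 48.0 against 600 ± 258 TPM (SD, n = 4, limma adjusted p = 0.606). Hspa8, the constitutive HSP70, averaged 749 ± 26.5 against 504 ± 256 TPM (SD, n = 4, limma adjusted p = 0.336).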

How the data were processed

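RNA of sorted beta cells was measured in 4 Control and 4 Chd4KO libraries, made with SMART-Seq v4 and Nextera XT kits per the labels' protocols. The authors deposited TPM for 55487 gene identifiers in each library. FastQC, Trimmomatic, HISAT2, HTSeq, DESeq2 and build mm10 are listed in the submitters' processing notes, without versions and with an annotation release not given in the sources used here. GENCODE M21 gave symbols for 55227 identifiers (99.5%). TPM is relative to a fixed total, so a larger insulin share lowers every other gene. TPM times exon length gave whole reads for 98.5 to 98.7% of values above 0 (tolerance 0.05 of a read), which were used for depth and for voom.

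Genotypes were compared by limma 3.58.1 (R 4.3.3) on log2(TPM + 1), with no covariate, over genes that reached 1 TPM in 4 or more libraries, with Benjamini-Hochberg adjustment over all genes tested and a threshold of 0.05, tested on simulated data. Such folds understate the change of low genes. Correlations and single values used exact permutation tests, two-sided, in Python 3.11.15 with numpy 2.4.6, pandas 2.3.3 and scipy 1.17.1. Figures were drawn with matplotlib 3.10.9.

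Values in every library are given for Nr4a2 and for the 2 genes of each role with the highest mean TPM. Atf3, Junb, Jund, Dusp6, Klf2, Egr2, Egr3 and Egr4 and the other members named with values were singled out after their values were seen. The members and the lists were chosen with earlier results of these data known. The rule for separate sets (a gap over 50% of the range with at least 2 libraries on each side), the CRE half-site and the fit without replicate 2 of both groups were also chosen after seeing the data. Alternatives covered pseudocount, filter, scaling, variance model, replicate block, recovered reads (limma's voom with trimmed-mean scaling) and left-out libraries.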

Additional observations from a re-analysis of the deposited data

Results flagged for a closer look

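In each genotype the library farthest from the other 3 was compared with the range of the group by Dixon's ratio at the 95% level, over 82 combinations of member and genotype. Chance flags about 1 in 20 groups, and 13 were found, which share libraries and are not independent. Control replicate 1 was far below the other Control libraries for 10 genes: Fosb at 6.2 TPM, Fosl1 at 1.74, Atf3 at 20.4, Egr3 at 0.032, Srf at 11.7, Nr4a1 at 20.3, Klf2 at 2.90, Klf4 at 1.81, Dusp5 at 48.5 and Npas4 at 11.4 TPM. Chd4KO replicate 2 was far above the other Chd4KO libraries for Egr2 at 13.7 TPM and Egr3 at 1.54 TPM. Control replicate 3 was far below the other Control libraries for Gadd45a at 28.2 TPM.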

How the results depend on the processing

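Of 20 alternative fits, 13 called no member. Nr4a2 alone was called (1 member) with median-of-ratios scaling, scaling without hormones and mitochondrial genes, quantile normalisation and voom on recovered reads, and Nr4a2, Egr4 and Sik1 (3 members) with array weights. That is 2.56% of the members tested against 4.39 to 5.12% of all genes in the first 4 fits, and 7.69% against 8.98% with array weights. Leaving out 1 library gave 0 to 2 members called. These were Nr4a1 and Nr4a2 without Control replicate 1 (5% of members against 1.60% of all genes). Without Chd4KO replicate 2 it was Egr4 (2.56% against 2.99%). Over all genes 451 were called (233 higher, 218 lower), against 220 with a minimum TPM of 5, 724 with median-of-ratios scaling (444 higher, 280 lower), 755 with quantile normalisation (466 higher, 289 lower), 1364 with array weights, 778 with voom (488 higher, 290 lower), 833 without Chd4KO replicates 2 and 4, and 143 without replicate 2 of both groups, an alternative chosen after seeing the data. Leaving out 1 library gave 171 (Control replicate 4) to 866 (Chd4KO replicate 4). With the replicate number as a block, 274 genes and 0 members were called. The labels do not say whether equal numbers pair mice. Deviations of same-numbered libraries correlated at -0.02, 0.43, 0.08 and 0.04, and only replicate 2 correlated best with its own number. A batch shared by number was not tested. The median change of the members stayed negative, from -1.29 to -0.64. Of 39 member changes, 30 kept their direction and 9 did not. With array weights the change was -0.34 for Jund, -0.27 for Klf2, 0.087 for Ier5 and -0.0021 for Gadd45b, which was -0.0045 with a pseudocount of 0.1. Without Chd4KO replicates 2 and 4 it was -0.68 for Klf2, -0.060 for Ier3, 0.085 for Ier5, -0.15 for Hspa1a and -0.11 for Hspa1b. Without replicate 2 of both groups it was -0.10 for Klf2, -0.17 for Klf10, -0.44 for Ier3 and -0.34 for Gadd45b. Leaving out 1 library moved the change of 28 of the 39 members by over 1.5 times, 16 of them without Control replicate 1, 16 without Chd4KO replicate 1 and 17 without Chd4KO replicate 2. Across its sign it moved from -0.17 to 0.19 for Jund, from -0.46 to 0.80 for Klf2, from -0.19 to 0.43 for Klf10, from -0.60 to 0.65 for Ier3, from -0.48 to 0.13 for Ier5, from -0.69 to 0.36 for Dusp1 and from -0.47 to 0.65 for Gadd45b. The cause of these shifts was not tested. Egr3 rested on 1 to 84 reads a library, and Nr4a3 and Dusp2, which were not tested, had up to 28 and 42.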
